A study of Sus scrofa with 2 samples.

Results

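The stretches described here are 373 autosomal bins of 100 kb whose CpG methylation in longissimus dorsi, the long back muscle, was at least 5 percentage points lower in a low-altitude than in a high-altitude Tibetan pig. They were found among 18612 bins that could be measured, so 2.00% of bins met the rule. A bin was measured where at least 150 cytosines had been listed for both pigs with at most 60 reads in each, and its level is the mean over those cytosines of methylated reads over all reads. The rule chose the bins from this same comparison, so their differences are given as a description, with no test. They are called the lowered bins, and every difference is low altitude minus high altitude.

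The high-altitude group was female Tibetan pigs ranging free on the Tibetan highland at an average of 4000 m, and the low-altitude group was lowland descendants of Tibetan pigs, also female, raised under experimental conditions with ordinary feed on the Chengdu plain (average 500 m). Of each group 1 pig was taken for bisulfite sequencing, and 1 library was made from its muscle. Altitude, housing, feeding, descent, the individual pig and its library therefore differ together and cannot be told apart. Bulk muscle DNA was used, so a lower level in all cells and another mix of cell types cannot be told apart either. Autosomal CpG cytosines numbered 9527968 in the high-altitude list, covered by 91619676 reads, and 9227228 in the low-altitude list, covered by 87482185 reads. The median depth was 8 reads in both.

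In mammals, methyl groups on CpG cytosines are set by DNMT3A and DNMT3B and copied onto the new strand by DNMT1 after DNA replication. In body tissues most CpGs outside CpG islands are methylated, and levels can shift over long domains as well as at single regulatory elements. Bisulfite turns unmethylated cytosine into a base read as thymine, so the share of cytosine reads gives the level. No listed cytosine had fewer than 5 reads or lacked a methylated read, so a CpG that had lost all methylation in a pig is missing from its list and is outside these values.

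The lowered bins were mostly well methylated regions in which the low-altitude pig was lower by 5 to 6 points. Their levels in the high-altitude pig ran from 36.7% to 89.7% with a median of 73.9%. Those in the low-altitude pig ran from 30.5% to 82.7% with a median of 68.1%. Over all measured bins the medians were 74.98% and 73.9%. The median difference was −5.60 points in the lowered bins against −1.04 points in all bins, where the SD over bins was 1.93 points. Of the 373 bins, 254 (68.1%) lay above −6 points, 36 were at −7 points or less, 18 at −8 points or less, and 1 was beyond −10 points. At the other end of the distribution 84 bins (0.451%) were at least 5 points higher in the low-altitude pig, with a median level of 57.1% in the high-altitude pig.

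**Figure D1:**
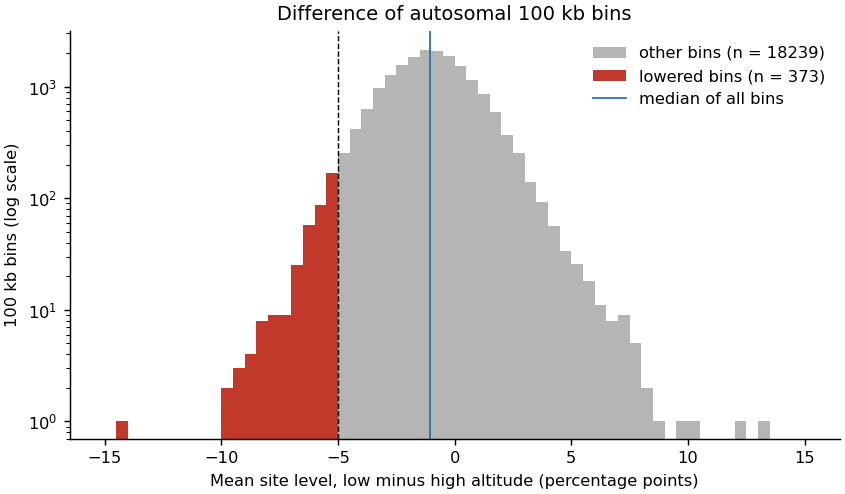
Difference in mean site level of 18612 autosomal 100 kb bins, low minus high altitude in percentage points, against the number of bins on a log axis. The 373 lowered bins (red) form the left edge of a single distribution centred at −1.04 points, and 1 bin stands apart at −14.4 points.

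**Figure D2:**
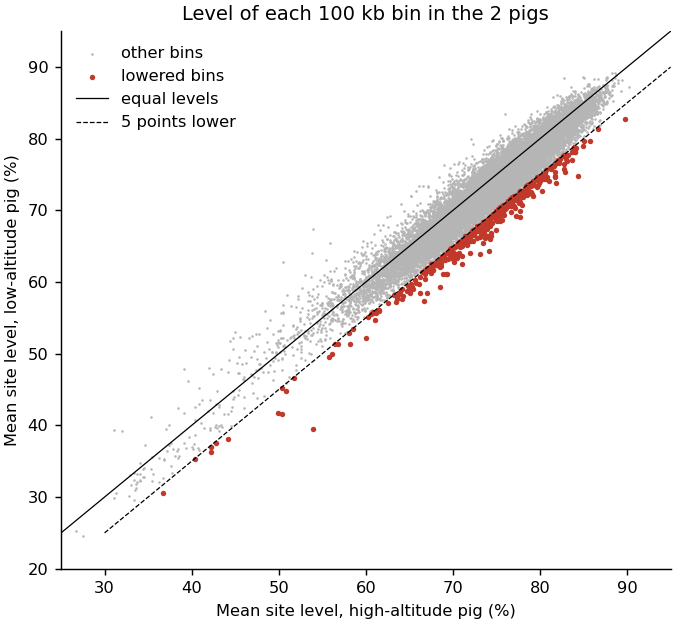
Mean site level of each 100 kb bin in the high-altitude pig (x axis, %) and in the low-altitude pig (y axis, %), with 1 point per bin. Lowered bins (red) follow the dashed line of 5 points lower over most of the range of levels, from 36.7% to 89.7% in the high-altitude pig.

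The threshold falls within a continuous distribution. The 3 bins just inside it were on chromosome 2 from 26100001 to 26200000, with 76.8% at high and 71.8% at low altitude, on chromosome 14 from 121400001 to 121500000, with 58.5% and 53.5%, and on chromosome 6 from 113000001 to 113100000, with 75.4% and 70.4%. The 3 just outside were on chromosome 14 from 46100001 to 46200000, with 78.2% and 73.2%, on chromosome 13 from 86000001 to 86100000, with 68.7% and 63.7%, and on chromosome 3 from 97700001 to 97800000, with 71.2% and 66.2%. All 6 round to −5.0 points and their SEs over cytosines were 1.14 to 1.83 points, so bins on either side of the threshold are not distinguishable. The median SE of a lowered bin was 1.38 points, taken over its cytosines, which are neighbours in 1 pig and no replicates.

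The bin with the largest difference lay on chromosome 3 from 143000001 to 143100000. The high-altitude pig had a mean site level of 53.9% there and the low-altitude pig 39.5%, which is −14.4 ± 1.76 points (SE over 169 cytosines). Lower values were found at 75.1% of its cytosines, on both strands (−13.0 and −17.5 points) and in each of its 3 measurable steps of 10 kb. Its depth stood out, at 23.9 and 20.9 reads per cytosine against medians of 10.4 and 10.1 over all bins. The part of this depth in the difference was not tested.

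The next 4 bins had between 8.81 and 12.6 reads per cytosine in both libraries. On chromosome 11 from 29000001 to 29100000 the level was 74.1% and 64.4%, a difference of −9.74 ± 1.15 points (SE, 343 cytosines), and all 10 of its 10 kb steps were lower. On chromosome 10 from 12200001 to 12300000 it was 84.3% and 74.8%, −9.55 ± 1.62 points (200 cytosines). This region was highly methylated in the high-altitude pig, where 38.5% of its cytosines had no unmethylated read, against 21.5% in the low-altitude pig. On chromosome 14 from 22800001 to 22900000 it was 66.6% and 57.3%, −9.29 ± 1.62 points (195 cytosines). On chromosome 16 from 57700001 to 57800000 it was 73.1% and 63.9%, −9.20 ± 1.62 points (220 cytosines). In this bin 8 of 9 steps were lower, and the remaining step differed by 1.12 points in the opposite direction.

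Of the 12 bins with the largest differences, −14.4 to −8.19 points, 10 were lower in every measurable 10 kb step, the others being those on chromosome 16 from 57700001 and on chromosome 4 from 28300001. Of the 12, 11 differed by −5 points or less on both strands. The remaining bin was on chromosome 12 from 51100001 to 51200000, with 50.4% and 41.6% and a difference of −13.3 points on the plus but −3.21 points on the minus strand. This bin also had 2.08 times as many reads in the low-altitude library at its shared cytosines, 18.6 against 8.93 per cytosine. The others of the 12 lay on chromosome 16 from 67500001 to 67600000 (68.5% and 59.4%), on chromosome 6 from 142300001 to 142400000 (67.1% and 58.4%) and from 142100001 to 142200000 (69.3% and 61.1%), on chromosome 4 from 28300001 to 28400000 (71.1% and 62.5%), on chromosome 13 from 60200001 to 60300000 (77.7% and 69.1%) and on chromosome 3 from 131900001 to 132000000 (69.2% and 61.1%).

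The lowered bins with the most cytosines behind them were all on chromosome 10. The bin from 21600001 to 21700000 had 65.4% and 59.0% over 808 cytosines, with 14.6 and 18.6 reads per cytosine. The bins from 5100001 to 5200000 and from 5300001 to 5400000 had 76.4% and 71.3% over 697 cytosines, and 77.6% and 72.4% over 646 cytosines. Their differences were −6.37 ± 0.687, −5.09 ± 0.867 and −5.17 ± 0.804 points (SE over cytosines), and the first of these SEs was the smallest of all lowered bins. Over summed reads instead of the mean of sites they differed by −3.95, −4.52 and −4.75 points, none of which meets the rule. At cytosines listed for 1 pig only the differences were −1.92, −4.07 and −1.67 points. The extremes of level were a bin on chromosome 13 from 170800001 to 170900000, with 36.7% and 30.5%, and a bin on chromosome 2 from 128400001 to 128500000, with 89.7% and 82.7%.

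Within the lowered bins the low-altitude pig had smaller shares of cytosines at high levels and larger shares in each class below 80%. Moves of single cytosines between classes were not computed. Of their 102193 shared cytosines, 16.6% were fully methylated in the reads of the high-altitude pig and 11.7% in those of the low-altitude pig, and 32.1% against 26.9% had a level of 80 to below 100%. The share at 40 to below 60% was 14.5% and 18.6%, and that at 20 to below 40% was 7.20% and 10.97%. Below 20% were 2.47% and 3.87%. Over all measured bins the shares were 19.3% and 17.99% for fully methylated cytosines and 6.83% and 7.10% for those at 20 to below 40%.

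**Figure D3:**
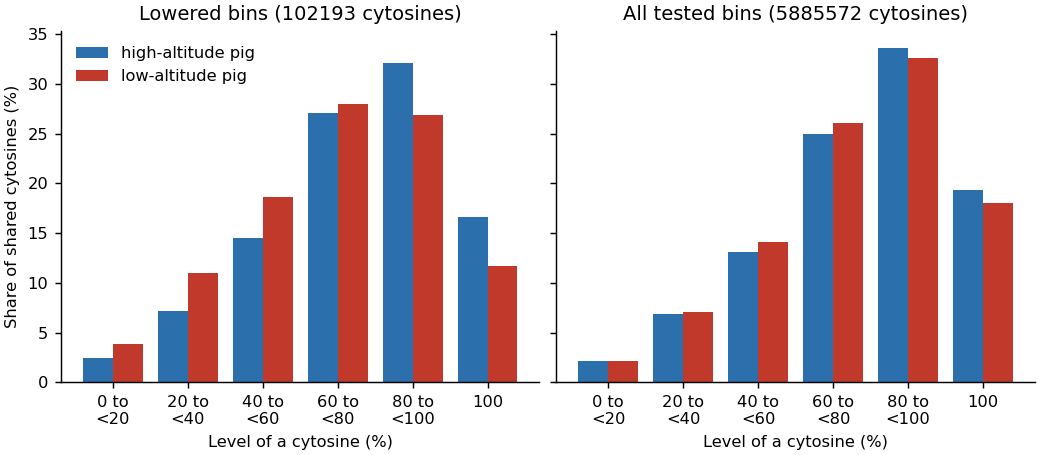
Share of shared cytosines (y axis, %) in 6 classes of level (x axis, %) for the high-altitude (blue) and the low-altitude pig (red), in the lowered bins on the left and in all measured bins on the right. In the lowered bins the low-altitude pig has fewer cytosines in both classes from 80% up and more in every class below.

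A single lowered bin had lower values at a median of 56.4% of its cytosines and higher values at 36.0%, the rest being equal. Over all bins the medians were 47.3% and 42.7%. Large single-site differences were present as well. In the lowered bins 1737 cytosines (1.70%) were at least 60 points lower and 371 (0.363%) at least 60 points higher in the low-altitude pig, against 0.818% and 0.695% of cytosines in all bins. When cytosines with a difference of 60 points or more in either direction were left out, the median difference was −4.93 points over the 367 of these bins that stayed measurable, and 183 bins, 169 of them among the 373, met the rule.

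The difference was spread along the 100 kb in most lowered bins. Of 3064 steps of 10 kb with at least 10 shared cytosines in the lowered bins, 2772 (90.5%) had a lower level at low altitude, against 59.9% of all such steps, and 1725 (56.3%) were at −5 points or less, against 17.9%. In 153 of the 373 bins (41.0%) every measured step was lower, as in 612 of all bins (3.29%). Of 1312 windows of 1 kb with at least 10 shared cytosines, 47 (3.58%) were lower by 20 points or more, against 0.639% of all such windows, and 2 were higher by 20 points or more, against 0.431%. These shares follow from the rule and carry no test. A lowered bin held a median of only 3 windows with enough cytosines, so most of its length was not measured at this scale. Of the 329 lowered bins with at least 1 measurable window, 39 (11.9%) held a window lower by 20 points or more, as did 3.32% of all bins with such windows. The 1 kb window that added most to a bin's difference held a median of 11.6% of it, and without that window 367 bins were still at −4 points or less and 203 still at −5 points or less.

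Sharper local differences did occur inside some of the most lowered bins. On chromosome 12 the window from 51102001 to 51103000 had 60.5% at high and 31.3% at low altitude over 10 cytosines, −29.2 points, with 94 and 240 reads. On chromosome 3 the window from 143020001 to 143021000 had 54.7% and 32.3% over 12 cytosines, −22.4 points, and on chromosome 10 the window from 12265001 to 12266000 had 85.9% and 63.6% over 12 cytosines, −22.3 points, with 106 and 89 reads. In the bin on chromosome 14 from 22800001 the largest window difference was −8.22 points, smaller than that of the whole bin, and the bin on chromosome 16 from 67500001 held no window with enough cytosines.

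Cytosines that the rule did not use give a separate reading of the same 2 libraries. Cytosines listed for 1 pig only, at most 60 reads deep, had a mean level of 71.5% in the high-altitude list (47073 cytosines) and 66.8% in the low-altitude list (43145 cytosines) of the lowered bins, −4.70 ± 0.171 points apart (SE over cytosines). Over all bins these levels were 73.2% and 72.4%, −0.79 points. The lists hold different cytosines here, so this is a contrast of 2 sets and not of paired sites. In single bins, 319 of 373 (85.5%) were lower at such cytosines, against 59.1% of all bins. With CpGs of which neither cytosine was shared, the difference was −4.60 points in the lowered bins and −0.59 points in all bins. Of the 12 bins with the largest differences, 10 were lower at the cytosines listed for 1 pig only. The bin on chromosome 12 from 51100001 had 43.1% and 44.2%, and the bin on chromosome 6 from 142100001 had 65.4% in both lists.

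Very deep cytosines, with more than 60 reads in either library, had also been left out. The lowered bins held 374 of them, in 16 bins, with mean levels of 42.0% and 37.5%, −4.56 ± 0.586 points apart (SE over cytosines). Over all bins such cytosines had 42.8% and 42.7%, −0.018 points. Of these 16435 cytosines, 2095 lay in bins at least 5 points higher and differed by 10.8 points. A single one of those bins held 1908. The difference over all bins without them was not computed. Lower values were found at 67.1% of the deep cytosines in the lowered bins and at 54.3% over all bins. By bin, 15 of the 16 were lower, on 1 to 85 cytosines each, and no such share was computed over all bins. The bin on chromosome 10 from 21600001 held 85 of the 374, at 72.4% and 70.6%, and without it the levels were 33.1% and 27.7%, −5.37 points. The 125 cytosines with 61 to 200 reads in both libraries differed by −2.98 ± 0.933 points, against −0.74 points over all bins. Of the 6778 such cytosines over all bins, 576 lay in bins at least 5 points higher and differed by 10.4 points. Such depth is unusual for these libraries, and the mapping of these reads was not examined.

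Strands gave a further reading, since the reads of the 2 strands are separate. All 373 bins were lower on both strands, both of which the rule used, and 143 were at −5 points or less on both. Any measured bin at −5 points or less on both strands meets the rule, so the count over all 18612 bins is the same. When bins were chosen at −5 points or less on plus-strand cytosines alone, 718 of 17100 bins (4.20%) were taken, with a mean of −6.08 points on the plus strand. On the minus strand the same bins had a mean of −2.81 ± 0.091 points (SE over bins), 88.3% of them were lower, and 16.99% were at −5 points or less. All 17100 bins had a mean of −1.03 points on the minus strand, with 68.7% lower and 4.27% at −5 points or less. Chosen on the minus strand, 730 bins had −6.09 points there and −2.70 points on the plus strand. The mean was thus further from 0 on the strand that did the choosing than on the other one. How much the choice enlarges the values of the 373 bins, chosen on both strands together, was not measured.

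Some of the lowered bins lay side by side. Of the 373 bins, 302 stood alone and 71 formed 33 runs of adjacent bins, 29 of 2 bins, 3 of 3 bins and 1 of 4 bins. Of 560 measured bins directly next to a lowered bin, 71 (12.7%) were lowered themselves, against 2.00% of all bins. The 489 adjacent bins that did not meet the rule had mean levels of 72.4% and 70.2%, a difference of −2.14 ± 0.071 points (SE over bins), and 89.8% of them were lower. All bins outside the lowered set had a mean of −0.93 points, with 71.7% lower. The difference was −1.81 points at a distance of 200 kb, −1.52 points at 500 kb, −1.31 points at 1000 kb and −1.03 points at 5000 kb. Neighbouring bins were measured on other cytosines than the lowered bins, in the same 2 libraries.

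**Figure D4:**
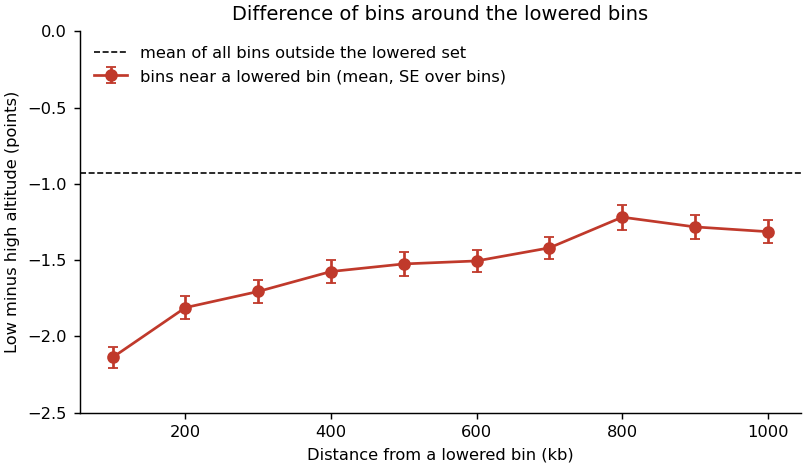
Mean difference, low minus high altitude in points, of bins outside the lowered set at distances of 100 to 1000 kb from a lowered bin, with the SE over bins. The difference is −2.14 points in adjacent bins and −1.31 points at 1000 kb, below the dashed line at −0.93 points for all bins outside the lowered set.

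The longest run lay on chromosome 14 from 75300001 to 75700000. Its 4 bins had 77.2% and 69.2%, 80.5% and 75.2%, 76.3% and 70.7%, and 71.9% and 65.7% in the high- and the low-altitude pig. All 39 of its 10 kb steps were lower, with differences from −20.6 to −0.166 points. In the 500 kb on either side the mean was −3.00 points and 77 of 100 steps were lower, against 59.9% of all steps in measured bins. The rule chose all runs on these same cytosines, so the counts inside them follow from the rule and carry no test. The stretches around runs can hold other lowered bins, so values there can partly follow from the rule too. Here the Mb from 75000001 holds 5 lowered bins, of which the run has 4. The bin before the run differed by −0.47 points and the bin after it by −3.16 points.

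On chromosome 16 a run of 3 bins from 67400001 to 67700000 had 74.2% and 66.1%, 68.5% and 59.4%, and 67.7% and 62.3%. All 17 of its measured steps were lower. Around it the mean was −4.82 points and 61 of 73 steps were lower, against 59.9% of all steps in measured bins. The stretch around the run holds other lowered bins, so its values partly follow from the rule. In the Mb that holds this run, from 67000001 to 68000000, 6 of 10 bins were lowered and all 10 had a lower level, from −9.11 to −4.02 points, which was the densest Mb of the set. The Mb on chromosome 14 from 75000001 held 5 lowered bins of 10, and that on chromosome 11 from 64000001 held 4 of 9. In all, the 373 bins fell into 303 intervals of 1 Mb, of which 250 held a single one and 11 held 3 or more.

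The other runs of 3 bins lay on chromosomes 14 and 1. On chromosome 14 from 25900001 to 26200000 the run had 74.4% and 68.0% over its cytosines, and on chromosome 1 from 43700001 to 44000000 the run had 70.4% and 64.5%. In these runs 25 of 26 and 29 of 30 steps were lower, which again follows from the rule. In the 500 kb on either side the means were −3.04 and −1.82 points. There 54 of 71 and 49 of 71 steps were lower, against 59.9% of all steps in measured bins. Of the 29 runs of 2 bins, the one with the largest mean difference lay on chromosome 11 from 28900001 to 29100000. It had 73.1% and 64.2%, with all 20 steps lower, from −13.5 to −1.29 points. Around it 56 of 81 steps were lower, with a mean of −3.85 points. Other lowered bins were not left out of the stretches around these runs, so values there can partly follow from the rule. Over all measured bins the mean was −1.03 points, and 59.9% of 10 kb steps were lower.

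**Figure D5:**
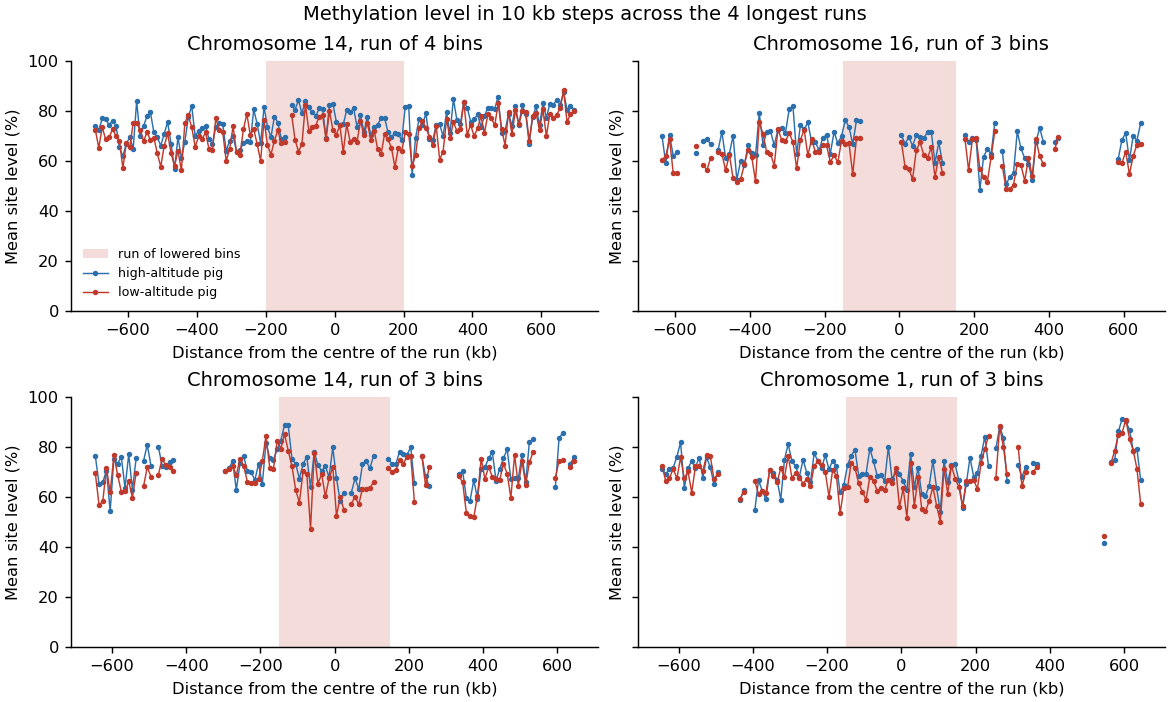
Mean site level (y axis, %) in 10 kb steps against the distance from the centre of the run (x axis, kb) for the 4 longest runs of lowered bins, shaded, and 500 kb on either side, in the high-altitude (blue) and the low-altitude pig (red). Lines break where a step held fewer than 10 shared cytosines. In the shaded runs the low-altitude pig is lower in 39 of 39, 17 of 17, 25 of 26 and 29 of 30 steps. These counts follow from the rule.

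All 18 autosomes held lowered bins, in unequal shares. Chromosome 14 held the most, 47 of 1150 bins (4.09%), followed in share by chromosome 16 with 22 of 721 (3.05%) and chromosome 10 with 20 of 671 (2.98%). Chromosome 5 held 4 of 832 (0.481%) and chromosome 18 held 4 of 494 (0.81%). Chromosome 14 also had the lowest mean over all its bins, at −1.37 points, and chromosome 18 the highest, at −0.63 points. Chromosome 10 was the only autosome without a bin at least 5 points higher in the low-altitude pig. Within 2 Mb of a chromosome end lay 8 lowered bins (2.14%), against 2.31% of all bins. On the X chromosome, which the rule leaves out, 28 of 1030 bins (2.72%) were at −5 points or less.

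Bins with few cytosines were lowered more often. The share was 3.52% among bins with 150 to below 200 shared cytosines, where the median SE was 1.62 points, and 0.92% among bins with 400 or more, where it was 0.963 points. Bins at least 5 points higher showed the same order, with 1.14% and 0.139%. The lowered bins held a median of 262 shared cytosines, against 305 over all bins. Counting error is larger in bins with fewer cytosines, and its part in the number of lowered bins was not tested.

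By level, the mean of both pigs was used. Of bins below 50%, 12 of 169 (7.10%) were lowered and 7.69% were at least 5 points higher. Of bins at 50 to below 60%, 18 of 590 (3.05%) were lowered and 4.58% higher. Of bins at 60 to below 70%, 134 of 4340 (3.09%) were lowered and 0.507% higher. Of bins at 70 to below 80%, which held the most lowered bins, 192 of 10402 (1.85%) were lowered and 0.202% higher, and of bins at 80% or more, 17 of 3111 (0.546%) were lowered and 0.0321% higher. Higher bins thus outnumbered lowered ones in both classes below 60%, and lowered bins outnumbered higher ones in all 3 classes from 60% up.

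The poorly methylated lowered bins were also deeper than most bins. Below 50% in the high-altitude pig were 7 of the 373, among them 3 on chromosome 7, from 26100001 to 26200000 (42.8% and 37.5%), from 26400001 to 26500000 (42.2% and 37.0%) and from 28700001 to 28800000 (44.2% and 38.1%). The last is 1 of 2 measurable bins in the Mb from 28000001 on that chromosome, and the second bin there differed by −3.48 points. These 3 bins had 14.6 to 21.6 reads per cytosine. In 11 lowered bins (2.95%) the shared cytosines had over 1.2 times as many reads in the low-altitude library, and in none over 1.2 times as many in the high-altitude library. Over all bins 51 (0.274%) and 64 (0.344%) were that unequal. The 11 bins included 3 on chromosome 12, from 50800001 to 50900000 (64.1% and 57.6%), from 50900001 to 51000000 (60.01% and 52.2%) and the one from 51100001 given above. Also among them were 2 adjacent bins on chromosome 17 from 67500001 to 67700000, with 54.7% and 48.3% over both. The chromosome 7 bins from 26400001 and 28700001 were among them too, at 1.37 and 1.25 times. So were the bins below 50% on chromosome 10 from 76900001 (1.32 times) and on chromosome 13 from 170800001 (1.41 times). The bin with the most cytosines, on chromosome 10 from 21600001, was another (1.27 times). Without the 11 bins the median difference was −5.57 points. Over all 373 bins the medians were 10.8 and 10.5 reads per cytosine. The part of unequal depth in these differences was not tested.

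At the median the lists of the lowered bins overlapped to a usual degree. A median of 70.5% of the cytosines in the high-altitude list of a bin and 72.2% of those in the low-altitude list were shared, against 68.6% and 71.5% over all bins. Single bins were unequal, with 58.7% and 92.9% on chromosome 3 from 143000001 and 87.3% and 32.4% on chromosome 12 from 51100001. Over summed reads instead of the mean of sites, the median difference of the lowered bins was −5.69 points, with a range from −11.6 to −2.81 points. The bin on chromosome 3 from 143000001 had −11.5 points by this measure.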

How the data were processed

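Per the labels, muscle DNA with added lambda phage DNA was sonicated, ligated to methylated adapters, treated with bisulfite, amplified and read by Illumina sequencing. The submitters' processing notes name Bismark 0.12.5. Build, read filters and handling of duplicates were not given in the sources used here. The deposited lists give, per the file headers, counts of methylated and unmethylated reads per cytosine, the methylation level (a fraction) and p-values, raw and corrected. The deposited fraction differed from the share of methylated reads by at most 0.0292 points. The deposited p-value columns were not used.

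Levels were computed from the counts with pandas 2.3.3, and binning was tested on simulated reads. With 1 library per group no test was made, and read depth sets the precision. SEs over cytosines or bins describe these 2 libraries only, and reads without molecular identifiers may be copies of 1 molecule. Bins named are the 12 largest differences, 5 runs taken by length and, where lengths tied, by mean difference, the 3 on each side of the threshold, the 3 with most cytosines and the extremes of level. The 3 bins on chromosome 7, the unequal-depth bins and the densest Mb were picked once their values had been seen. The members and the rules were chosen with earlier results of these data known. The available gene table, for Sscrofa11.1, ended before the last listed cytosine on 18 of 19 chromosomes (the largest gap was 41.0 Mb). Its coordinates were therefore not used, and no gene, exon or sequence was assigned. Alternatives covered depth limits, cytosine number, bin size and offset, strand, threshold and weighting. The alternatives on unequal depth and on CpGs with no shared cytosine were chosen after seeing the data.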

Additional observations from a re-analysis of the deposited data

How the results depend on the processing

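The number of lowered bins depended on the rule's settings. It was 93 of 2748 bins (3.38%, against 2.00% by the rule) when cytosines needed 10 reads in each library. With 300 or more cytosines it was 133 of 9676 (1.37%). On the plus and the minus strand alone, with 75 or more cytosines, it was 804 (4.36%) and 815 (4.44%). Without cytosines that differed by 60 points or more it was 183 (0.991%). It was 1047 (5.63%) at −4 points, 119 (0.639%) at −6 points and 110 (0.591%) after the median of all bins was subtracted. With 50 kb bins of 75 or more cytosines it was 1691 (4.74%), and with 200 kb bins of 300 or more it was 85 (0.853%). The number stayed within 1.5 times of 373 under the other settings tried. It ran from 362 (1.96%) without bins of unequal depth to 522 (2.47%) with 100 or more cytosines. With bins shifted by 50 kb it was 389 (2.08%). Of the 373, 275 met the rule over summed reads and 326 with the strands of each CpG summed. The median difference of those of the 373 bins that stayed measurable was −5.76 points at 10 reads (46 bins), −5.86 points on the plus strand (348 bins) and −4.93 points without cytosines differing by 60 points or more (367 bins). Under the other settings, with 133 to 373 bins, it lay from −5.69 to −5.57 points. Deep cytosines differed by −2.98 points at 61 to 200 reads in both libraries, against −0.74 points over all bins. The latter value includes 576 cytosines of bins at least 5 points higher, which differed by 10.4 points. Cytosines listed for 1 pig only differed by −8.64 points at 10 reads or more, against −1.96 points over all bins. Bins 2, 5 and 10 steps from a lowered bin differed by −1.81, −1.52 and −1.31 points. The cause of these changes was not tested. No paired analysis was possible because each group had 1 library, and for the same reason no library could be left out.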
